A study of Homo sapiens with 3 samples.

Results

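The integrated stress response was examined here through 10 genes: the eIF2alpha kinases EIF2AK1, EIF2AK3 and EIF2AK4, the transcription factors ATF3, ATF4, ATF5 and DDIT3, the pseudokinase TRIB3, and the phosphatase subunits PPP1R15A and PPP1R15B. They were chosen by name, as every probe whose platform annotation carried one of these symbols. This gave 16 of the 47323 probes on the array and 10 of 20046 named genes. The arrays held RNA from 293T, an established human line derived from HEK293 embryonic kidney cells that carries the SV40 large T antigen. Cells were grown with 10% serum and lipid-transfected, and total RNA was taken 48 h later. The knockdown group has 2 arrays, siTARBP2-1 and siTARBP2-2, which carry different siRNAs against TARBP2. The control group has 1 array, siControl, which the series design calls mock-transfected instead. All arrays share the same line and protocol, and no label says whether the RNAs came from separate cultures. The protein made from TARBP2 binds double-stranded RNA, works with DICER1 in microRNA processing, and is known to restrain the kinase EIF2AK2 (PKR).

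In the integrated stress response, a kinase phosphorylates the alpha subunit of the initiation factor eIF2, which lowers general protein synthesis while the mRNAs of ATF4 and a few other factors are translated more. ATF4 then drives genes of amino acid supply together with ATF3, DDIT3 and TRIB3, and PPP1R15A closes the loop by bringing phosphatase PP1 to eIF2alpha. Much of this control acts on translation and on protein phosphorylation, which an mRNA array does not read.

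The level of TARBP2 itself differed from siControl by -2.12 log2 units with siTARBP2-1 and by -2.30 with siTARBP2-2, and at its other probe by -1.63 and -1.85. After normalization 11768 named genes had a probe above background (detection p under 0.01) on at least 1 array and were tested. After quantile normalization 10.1% of genes differed from siControl by over 1.5-fold (0.585 log2 units) with siTARBP2-2 and 2.62% with siTARBP2-1. This order depended on the scaling, since with equal array medians 1159 genes did so with siTARBP2-2 and 1278 with siTARBP2-1. Markers of HEK293 origin were present, with 8 of 9 measured ones above background on at least 1 array and PAX2 on none. Of 8 markers of the breast line MDA-MB-231 there were 5, while TGFBI, IL6 and AXL were on none, and 4 measured blood cell markers were on none. Levels below are background-corrected, quantile-normalized log2 intensities, which can be set side by side between arrays but not between probes.

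None of the 10 genes passed the test of knockdown against control. With limma, fitted across the 11768 genes, each had an adjusted p of 0.99991, and 0 of 10 reached an unadjusted p under 0.05, where 0% of all genes were called after adjustment and 1.73% before. By size, 0 of 10 differed from siControl by over 1.5-fold with siTARBP2-1 (2.62% of all genes, 1.26% higher and 1.36% lower; 3.04% of all probes). With siTARBP2-2, 1 of 10 did so, ATF5, which was lower (10.1% of all genes, 5.27% higher and 4.88% lower; 10.8% of all probes). The typical absolute difference from control was 0.09 log2 units with siTARBP2-1 and 0.12 with siTARBP2-2, beside 0.14 and 0.20 over all genes tested. The test's only residual degree of freedom (1) is the gap between the siRNA arrays, and it held no spread between control arrays. It did not call TARBP2 either, the targeted gene, at -2.12 and -2.30 log2 units. That no member passed therefore does not show that the members were unchanged. Errors given as SE are limma's moderated ones, which lean on the variances of the whole array. In bulk RNA, fewer expressing cells and less RNA per cell cannot be told apart.

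**Figure D1:**
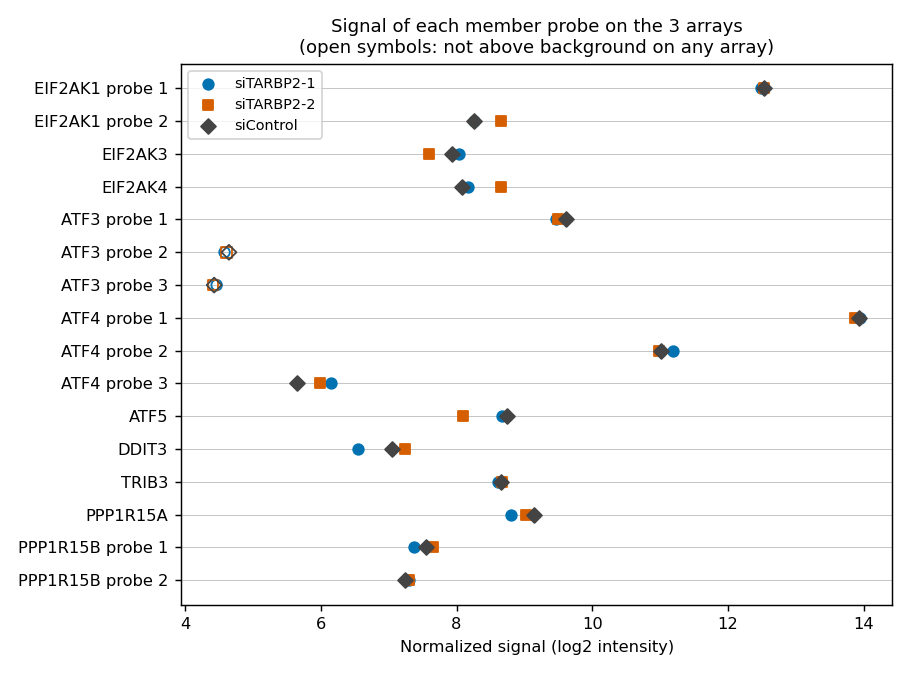
Normalized signal (log2 intensity, horizontal axis) of each of the 16 member probes on the siTARBP2-1, siTARBP2-2 and siControl arrays, 1 point per array. For most probes the 3 points lie close together, and the 2 ATF3 probes drawn with open symbols were not above background on any array.

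All 10 genes had a probe above background on all 3 arrays. Of the 16 probes, 14 were above background on all arrays and 2, both of ATF3, on none. The genes with several probes were EIF2AK1, ATF3, ATF4 and PPP1R15B, and the other 6 had 1 probe each. The gene-level test used the probe with the highest mean. Every probe is described below.

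The C/EBP-ATF composite element, a motif bound by ATF4 with a C/EBP partner, and the cAMP response element, bound by CREB and ATF family dimers, link several of these genes to the factors above. Promoters from RefSeq (GRCh38.p14, 250 bases before to 50 after each start) were available for 9 of the 10 genes, as 16 start sites. They were searched on both strands for TGATGNAA, the core of the composite element, for TGACGTCA, the cAMP response element, and for the consensus endoplasmic reticulum stress response element (ERSE). Each stretch shown holds 1 match, so no motifs overlap there. The core was found before 1 start of PPP1R15B and 1 of the 2 starts of ATF3, and among all 35116 promoters 3.62% held it. PPP1R15A held the cAMP response element, as 1.85% of all promoters did, and 0 of the 9 genes held the ERSE (0.0769% of all promoters). The stretches that carry these letters are shown because they are the members' own candidate links to the pathway, each 5′ to 3′ on the gene's strand with the matched letters in capitals. For PPP1R15B (chr1:204411968-204412067, minus strand) and ATF3 (chr1:212565157-212565256, plus strand) they run from 250 to 151 bases before the start. For PPP1R15A (chr19:48872321-48872420, plus strand) the stretch covers the 100 bases before it.
PPP1R15B: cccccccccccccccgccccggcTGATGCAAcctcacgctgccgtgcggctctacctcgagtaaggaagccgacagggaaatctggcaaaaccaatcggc
ATF3: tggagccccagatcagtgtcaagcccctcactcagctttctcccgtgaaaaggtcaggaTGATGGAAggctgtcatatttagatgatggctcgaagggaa
PPP1R15A: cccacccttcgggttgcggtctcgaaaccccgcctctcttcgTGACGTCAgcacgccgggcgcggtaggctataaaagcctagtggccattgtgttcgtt
A match is a run of letters and was not tested as a binding site. Sequence outside the window was not searched, so a gene without a match here may still hold the element elsewhere.

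Among the kinases EIF2AK4 stood above control on the siTARBP2-2 array, EIF2AK3 stood below it there, and EIF2AK1 lay at control at its brighter probe. EIF2AK4 (GCN2), which senses uncharged tRNA and stalled ribosomes, had log2 levels of 8.17 with siTARBP2-1, 8.65 with siTARBP2-2 and 8.09 in siControl. The siTARBP2-2 array was the high one, and siTARBP2-1 lay near control. The differences were 0.08 and 0.56, a ratio of 1.06 with siTARBP2-1 and 1.48 with siTARBP2-2, just under the 1.5-fold mark. The mean difference was 0.32 ± 0.29 (SE, n = 2 against 1; 95% interval -0.35 to 0.99). With siTARBP2-2, 11.0% of all genes lay at least as far from control.

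EIF2AK3 (PERK), the kinase of the endoplasmic reticulum membrane, had levels of 8.03, 7.60 and 7.94 on the siTARBP2-1, siTARBP2-2 and siControl arrays. The siTARBP2-2 array was the low one, opposite to its place for EIF2AK4. The differences were 0.10 and -0.34, with a mean of -0.12 ± 0.28 (SE, n = 2 against 1; 95% interval -0.77 to 0.53).

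EIF2AK1 (HRI), the kinase that answers to heme shortage and mitochondrial stress, gave 12.49, 12.53 and 12.52 at its brighter probe, so that the siRNA arrays were 0.04 log2 units apart and siControl lay between them. The mean difference there was -0.01 ± 0.25 (SE, n = 2 against 1; 95% interval -0.59 to 0.56). The other EIF2AK1 probe, annotated to another transcript record, gave 8.26, 8.65 and 8.25. It was at control with siTARBP2-1 (0.01) and 0.40 above control with siTARBP2-2, so the probes of this gene did not give the same difference for siTARBP2-2. EIF2AK2 (PKR), the double-stranded RNA sensor and the remaining kinase of the family, was below control by small amounts, with differences of -0.08 and -0.23 and a mean of -0.16 ± 0.25 (SE, n = 2 against 1).

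ATF4, the central factor of the response, gave different answers at its 3 probes. At the brightest probe the levels were 13.94 with siTARBP2-1, 13.87 with siTARBP2-2 and 13.92 in siControl, and the differences were 0.02 and -0.06. The arrays lay together there, and the mean was -0.02 ± 0.25 (SE, n = 2 against 1; 95% interval -0.59 to 0.56). The next probe, annotated to another ATF4 transcript record, gave 11.19, 10.99 and 11.01, or 0.18 above control with siTARBP2-1 and -0.02 with siTARBP2-2. The dimmest probe gave 6.15, 5.99 and 5.66, so that both knockdown arrays lay above control by 0.50 and 0.33. That probe had raw signals of 130.9, 98.1 and 89.2, and its detection p was 0.0013 on each array. The dimmest and the brightest probe carry the same transcript record, so the difference between them is not one of annotated transcript. In the probe-level fit the dimmest probe did not pass either (limma adjusted p = 0.99991).

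ATF5, a close relative of ATF4 whose mRNA is under the same kind of translational control, was the member farthest below control. Its levels were 8.68 with siTARBP2-1, 8.10 with siTARBP2-2 and 8.74 in siControl. The siTARBP2-2 array alone was low, at a ratio of 0.64 to control, while siTARBP2-1 stood at 0.95. The differences were -0.07 and -0.64 and the mean was -0.36 ± 0.31 (SE, n = 2 against 1; 95% interval -1.06 to 0.35). As large a difference in either direction with siTARBP2-2 was seen in 7.62% of all genes. Without background correction the siTARBP2-2 difference was -0.55 and with the authors' deposited values -0.56, both short of 1.5-fold.

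ATF3, a stress-induced factor of the same family, was slightly below control on both knockdown arrays at its detected probe, with levels of 9.46, 9.49 and 9.61. The differences of -0.15 and -0.12 were close to each other, and the mean was -0.14 ± 0.25 (SE, n = 2 against 1). With equal array medians instead of quantile normalization they were 0.20 and -0.22. Its other 2 probes had detection p between 0.22987 and 0.6961 and give no level.

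DDIT3 (CHOP), the factor tied to cell death under long stress, was the member on which the siRNAs differed most. Its raw signals were nearly equal, 159.3 with siTARBP2-1, 170.7 with siTARBP2-2 and 161.6 in siControl. After normalization, which lowers the brighter siTARBP2-1 array (mean raw signal 680 beside 514 and 528), the levels were 6.55, 7.23 and 7.04. The siTARBP2-1 array was then low, at a ratio of 0.71 to control, and the siTARBP2-2 array was high, at 1.14. The differences were -0.49 and 0.19, and the mean was -0.15 ± 0.33 (SE, n = 2 against 1; 95% interval -0.90 to 0.61). The gap of 0.68 log2 units between the siRNAs was matched or exceeded by 6.40% of all genes. Without background correction the siTARBP2-1 difference was -0.32.

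TRIB3, a pseudokinase induced by ATF4 and DDIT3 that feeds back on ATF4, was at control on both arrays. Its levels were 8.61, 8.68 and 8.66, with differences of -0.05 and 0.02 and a mean of -0.02 ± 0.25 (SE, n = 2 against 1; 95% interval -0.59 to 0.56). The interval spans about 1.5-fold in either direction, so a smaller change of TRIB3 could not be seen with these arrays. It sets no size above which a change would be called, since TARBP2 at -2.12 and -2.30 was not called either.

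Of the phosphatase subunits, PPP1R15A (GADD34), the stress-inducible one, was below control on both knockdown arrays. The levels were 8.81 with siTARBP2-1, 9.03 with siTARBP2-2 and 9.14 in siControl, and siControl was the highest of the 3. The differences were -0.34 and -0.12, with a mean of -0.23 ± 0.26 (SE, n = 2 against 1; 95% interval -0.82 to 0.37). With equal array medians instead of quantile normalization these differences were 0.02 and -0.22. PPP1R15B (CReP), the constitutive subunit, had levels of 7.37, 7.65 and 7.55 at the brighter probe and 7.30, 7.30 and 7.24 at the other. The siTARBP2-1 array was low at the first (-0.18) and not at the second (0.05), while siTARBP2-2 was slightly above control at both (0.10 and 0.06). The mean at the brighter probe was -0.04 ± 0.26 (SE, n = 2 against 1).

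**Figure D2:**
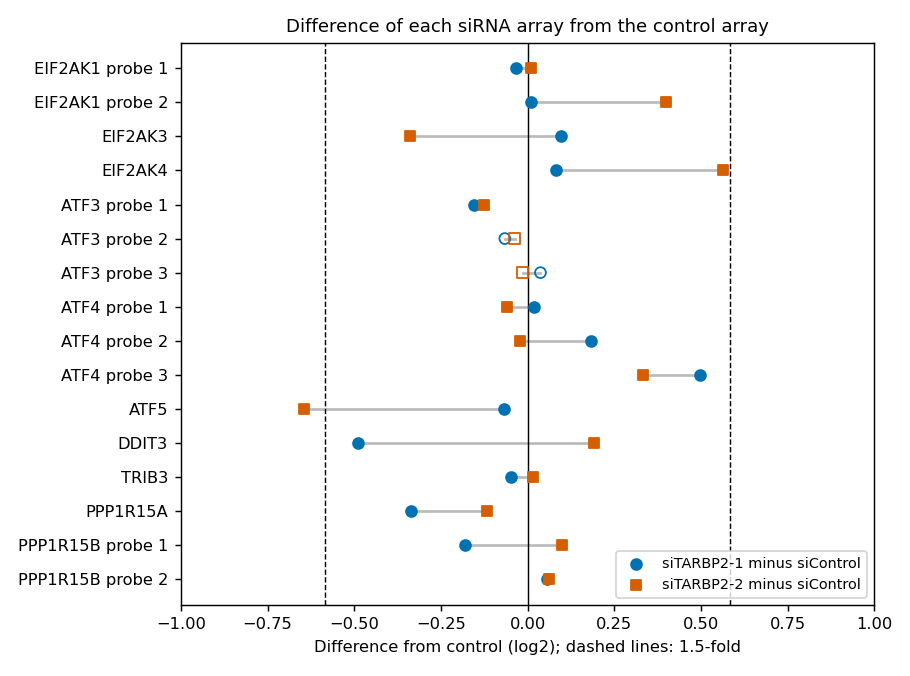
Difference of each siRNA array from siControl (log2, horizontal axis) for each member probe, with the siRNAs joined by a grey line and dashed lines at 1.5-fold. The siTARBP2-2 point of ATF5 lies past a dashed line, and the widest gaps between siRNAs are those of DDIT3 and ATF5.

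The members did not move as a group. With both siRNAs, 3 of 10 genes were below control (ATF3, PPP1R15A and ATF5; 27.2% of all genes), 1 was above (EIF2AK4; 31.9% of all genes), and 6 went in opposite directions (40.5% of all genes). Both comparisons share the siControl array, so a common direction can come from that array alone. The median over the 10 genes was -0.06 with siTARBP2-1 and -0.02 with siTARBP2-2, beside 0.00 and 0.03 over all genes. The gap between the siRNAs had a median size of 0.25 over the members and 0.22 over all genes. With equal array medians instead of quantile normalization, 0 of 10 members were below control with both siRNAs (7.99% of all genes), and the median of all genes moved to 0.31 with siTARBP2-1 and -0.06 with siTARBP2-2. Relative to those medians, DDIT3 was at -0.53 and 0.16, ATF5 at -0.04 and -0.69, and EIF2AK4 at 0.12 and 0.52.

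**Figure D3:**
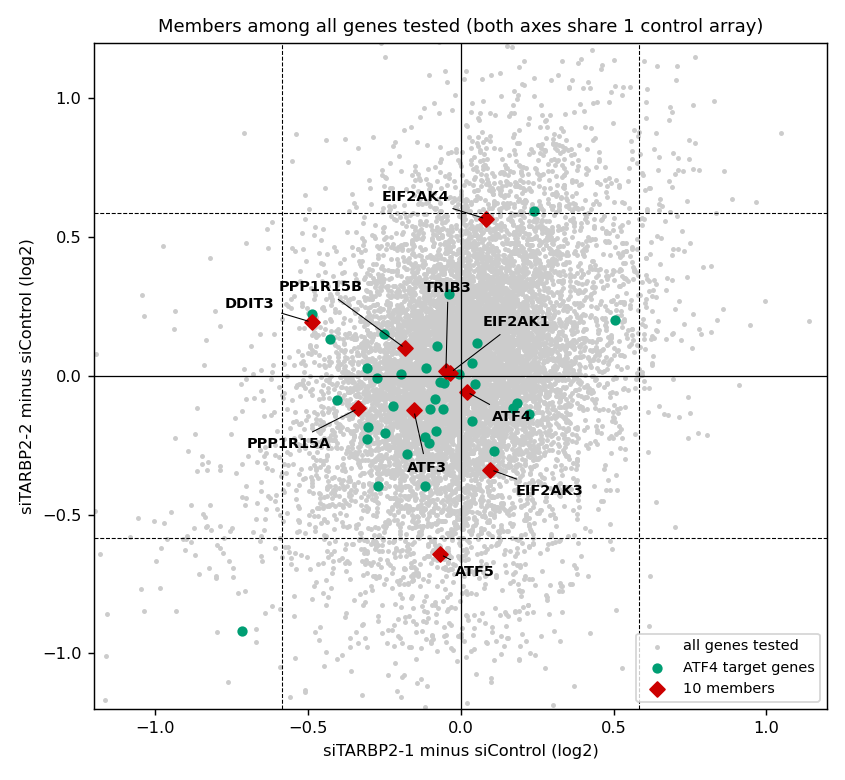
Difference from siControl with siTARBP2-1 (horizontal, log2) and siTARBP2-2 (vertical, log2) for all genes tested (grey), the ATF4 target genes (green) and the 10 members (red), with 69 genes outside the axes. Both axes share 1 control array, so the tilt of the grey cloud is no measure of a shared effect. Of the members, ATF5 lies past the dashed 1.5-fold lines.

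**Figure D4:**
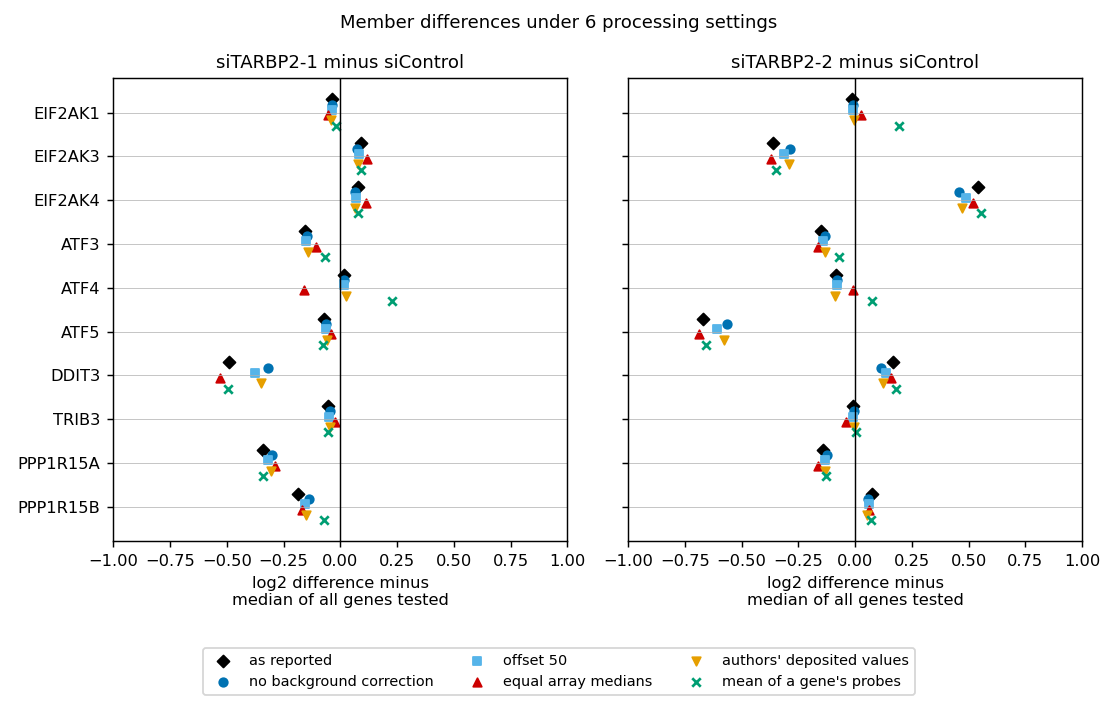
Difference of each member from siControl (log2, minus the median of all genes tested) under 6 processing settings, for siTARBP2-1 (left) and siTARBP2-2 (right). Markers of a gene lie close together except where the mean of all probes takes the place of the brightest probe, as for ATF4 and EIF2AK1, and on the siTARBP2-1 array for DDIT3 and, with equal array medians, for ATF4.

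The authors' deposited table of log fold changes, in which the base of the log is not stated, places EIF2AK4 in its up-regulated class, at 0.228. It is the only member with class 1 there, a class that holds 2.61% of 39747 accessions and whose lowest log fold change is 0.2. In the same authors' deposited table ATF5 stands at -0.253 and PPP1R15A at -0.182, and DDIT3 at -0.061. That table gives 1 value per accession and not per siRNA. Over 16977 accessions with 1 probe, its log fold changes had a slope of 0.654 on the mean log2 differences of the deposited intensities (correlation 0.943 across accessions, which are not independent), so its values cannot be read as folds. In the authors' deposited intensities EIF2AK4 was 0.07 above control with siTARBP2-1 and 0.49 with siTARBP2-2.

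The genes around the members were described from 6 lists, in none of which a gene passed the test (limma adjusted p, 0 called in each). Over all genes tested, 27.2% were below control with both siRNAs and 31.9% above, and past 1.5-fold with siTARBP2-2 were 5.27% above and 4.88% below. In the lists too both comparisons share the siControl array, so a common direction can come from that array alone. The subunits of eIF2, of its exchange factor eIF2B and their helpers numbered 10, all tested, of which 3 were below control with both siRNAs and 3 above. Medians were -0.07 with siTARBP2-1 and 0.10 with siTARBP2-2. EIF2B2, a regulatory eIF2B subunit, was at -0.09 and -0.60, and EIF2S1, the eIF2alpha that the kinases phosphorylate, at 0.14 and 0.36. EIF2B1, the alpha subunit of eIF2B, was at -0.31 and -0.19, and EIF2S3, the gamma subunit of eIF2, at -0.25 and -0.03. In this list EIF2B2 was the one gene past 1.5-fold with either siRNA.

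Regulators of the kinases and of the phosphatase numbered 14, of which 6 were below control with both siRNAs (42.9%, beside 27.2% of all genes) and 1 above (7.14%, beside 31.9%). The latter was HSPA5, the chaperone BiP that holds EIF2AK3 inactive, picked after its values of 0.07 and 0.07 were seen. The medians were -0.03 and -0.09. IMPACT, which holds EIF2AK4 inactive by competing for its activator GCN1, had differences of -0.19 and -0.63. Both of its detected probes were below control with both siRNAs, the other at -0.49 and -0.95. EIF2AK4 was at 0.08 and 0.56 on the same arrays, and a link between the mRNA levels of these genes was not tested. PPP1CB, a catalytic PP1 subunit, was at -0.14 and -0.54, and at -0.38 and -0.85 at its other detected probe. PPP1CC, another catalytic subunit, was at -0.11 and -0.09. OMA1, the mitochondrial protease that acts upstream of EIF2AK1, was at -0.03 and -0.35, and at its other detected probe at 0.05 and -0.15.

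Relatives of the members, from the CREB, ATF, C/EBP and Tribbles families, gave 24 tested genes of 30, with 9 below control with both siRNAs and 10 above, and medians of 0.10 and 0.00. The widest values were on the siTARBP2-2 array. CEBPA, a C/EBP factor of differentiation, was at 0.32 and 0.86, and ATF2, a stress kinase target, at -0.31 and -0.78. CREB3L2, a factor of the secretory pathway, was at -0.16 and -0.84, and CREB5 at -0.03 and -0.79. Past 1.5-fold with siTARBP2-2 were 2 genes above control, CEBPA and CREB1 (0.62), and 4 below, ATF2, CREB3L2, CREB5 and CREBL2 (-0.60), of 24 tested (beside 5.27% and 4.88% of all genes). CREB1 and CREBL2 were picked after their values were seen.

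ATF4 target genes, of which 37 of 44 were tested, lay slightly below control. With both siRNAs 18 were below control (48.6%, beside 27.2% of all genes) and 4 were above (10.8%, beside 31.9%). The medians were -0.10 with siTARBP2-1 and -0.09 with siTARBP2-2. This list overlaps one whose small negative median was already known, so the count adds no independent evidence. With equal array medians 8.11% of the list and 7.99% of all genes were below control with both siRNAs, while the list medians relative to all genes were -0.11 and -0.11. Between them the genes went both ways. PYCR1, of proline synthesis, was at 0.24 and 0.59, with all 3 detected probes above control on both arrays, and SLC1A5, a glutamine carrier, at 0.50 and 0.20. PHGDH, the first enzyme of serine synthesis, was at -0.27 and -0.40, and SARS1, seryl-tRNA synthetase, at -0.31 and -0.23. SLC7A11, the cystine carrier, was the 1 gene of the list with an unadjusted p under 0.05 (limma adjusted p = 0.99991). It was above background on siControl alone and entered the fit only through that array, so its p is no support. Against the lowest detected signal it was at least 1.29-fold lower in knockdown, a bound that rests on 1 control array. It counts among the 18 and was picked after its value was seen. With detection on all 3 arrays, 47.2% of the list and 26.7% of all genes were below control with both siRNAs.

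Promoters were available for 34 of the 44 ATF4 target genes, and 13 of the 34 held the core TGATGNAA, beside 4.46% of the 27305 genes in the promoter table. The list holds genes already known as ATF4 targets and the element is one that ATF4 binds, so that share is no independent finding. Of the 13 genes, 10 were tested, and 7 of these were below control with both siRNAs and 1, SLC1A5, above. Of the 21 genes with no match in the window, 19 were tested, with 9 below and 2 above. Over all genes tested 27.2% were below and 31.9% above, and a difference by match was not tested. The medians were -0.11 and -0.12 with a match and -0.10 and -0.09 without. Among the former were tRNA synthetase genes: MARS1 at -0.12 and -0.40, NARS1 at -0.18 and -0.28, TARS1 at -0.10 and -0.12, GARS1 at -0.09 and -0.08, and IARS1 at -0.07 and -0.02. AARS1 went in opposite directions, at 0.11 and -0.27. ASNS, asparagine synthetase, was at -0.30 and -0.18. These synthetases and ASNS were picked for the match and after their values were seen.

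Cell death genes linked to DDIT3, all 6 tested, differed mainly on the siTARBP2-2 array, with medians of 0.04 and -0.26. ERO1A, an oxidase of the endoplasmic reticulum, was at -0.24 and -1.88, and BCL2 at 0.00 and -0.91. Both detected BCL2 probes were low with siTARBP2-2 and at control with siTARBP2-1. TNFRSF10B, the death receptor DR5, was at 0.31 and 0.65, with -0.12 and 0.36 at its other detected probe. BBC3 (PUMA), a killer protein of the BCL2 family, was at 0.07 and 0.53. PMAIP1 (NOXA), picked after its value was seen, was at 0.19 and -0.62. DDIT3 itself was at -0.49 and 0.19 on the same arrays, and a link from it to these genes was not tested.

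The other branches of the unfolded protein response, run by IRE1 and ATF6, gave 22 tested genes of 24 that were split evenly. With both siRNAs 10 were below control (45.5%, beside 27.2% of all genes) and 10 above (45.5%, beside 31.9%). Opposite directions were seen for 2, beside 40.5% of all genes. The split of this list was not examined under other scalings. The medians were 0.00 and -0.01. EDEM1, which helps clear misfolded glycoproteins, was at -0.72 and -0.13, and DERL3, of the retrotranslocation machinery, at 0.39 and 0.38. MBTPS2, the protease that releases ATF6, was at -0.02 and -0.57 and at its other detected probe at -0.28 and -0.59, and MANF, a secreted stress protein, at -0.18 and -0.29.

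**Figure D5:**
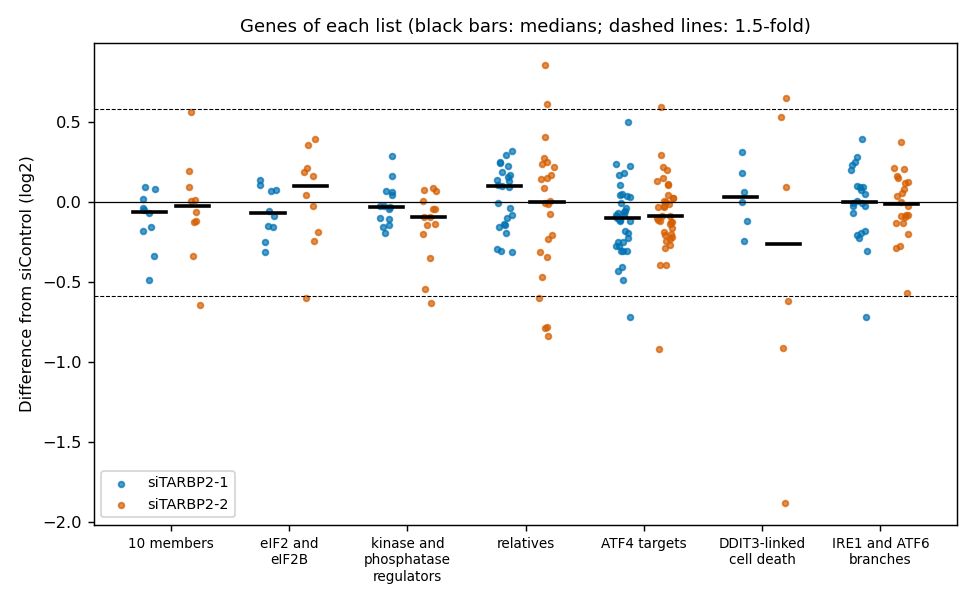
Difference from siControl (log2, vertical axis) of each tested gene in the members and the 6 lists, for siTARBP2-1 (blue) and siTARBP2-2 (orange), with black bars at the medians and dashed lines at 1.5-fold. The siTARBP2-2 points spread more widely among the relatives and the cell death genes, where ERO1A is the lowest at -1.88.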

How the data were processed

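The members and lists were chosen with earlier results of these data known. Per the file headers, the deposited probe table holds an average signal intensity for every array, each with its detection p-value. The deposited matrix of intensity values shares 1 distribution over the arrays. The submitters' processing notes name lumi. The authors' deposited table of log fold changes was handled as log2 values, but its base is not stated and no fold is drawn from it. The lumi version is not given in the sources used here.

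Signals were background corrected from the detection p-values and quantile normalized with neqc (offset 16) of limma 3.58.1 in R 4.3.3. Of the 47323 probes 30113 had 1 gene symbol, 8 had several and 17202 are unnamed here. The brightest probe stood for a gene, and genes entered the fit if that probe was detected (p under 0.01) on any array. Dim probes gain larger differences from background correction, while quantile normalization hides a change of most transcripts together. The contrast of 2 knockdown arrays with 1 control was fitted with lmFit and eBayes (two-sided, Benjamini-Hochberg over 11768 genes, threshold 0.05; 6.78 prior degrees of freedom). Single siRNAs were compared by size (1.5-fold), with no test. A gene below background on every array of a group is given as at least N-fold, against the lowest detected signal. The code of the fit was run on simulated arrays with less spread than these, which does not show what it can call here. P-values measure only the spread between these arrays, whose number limits the precision.

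Named are all members, TARBP2, EIF2AK2 and up to 4 genes per list with the largest mean difference among those detected on all arrays. Others are marked as picked after their values were seen. The alternatives were other background corrections, scalings, filters, probe rules, variance priors, the authors' values and each knockdown array left out.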

Additional observations from a re-analysis of the deposited data

How the results depend on the processing

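No member passed the test under any of the 9 settings in which it was run, and the number of genes called moved from 0 to 1, TARBP2, with equal array medians and with a trend and robust prior. Members near 0 changed sign. With equal array medians ATF4 was at 0.041, EIF2AK1 at 0.111, PPP1R15B at 0.072 and TRIB3 at 0.094 (mean log2 difference). That setting equalizes the medians over all probes, and the median of the genes tested then stood at 0.31 with siTARBP2-1 and -0.06 with siTARBP2-2. Averaging the probes of each gene, ATF4 was at 0.159, EIF2AK1 at 0.097 and PPP1R15B at 0.009, since their probes differ. For ATF3, ATF5, EIF2AK4 and PPP1R15A the sign of the mean difference held under every setting, also with either knockdown array left out under the main scaling. With equal array medians, however, siTARBP2-1 alone lay above control for ATF3 (0.20), ATF5 (0.27) and PPP1R15A (0.02). The mean of ATF3 there was only -0.01. DDIT3 (-0.147) and EIF2AK3 (-0.121) kept it under the other settings, but DDIT3 was at 0.193 without siTARBP2-1 and EIF2AK3 at 0.097 without siTARBP2-2. ATF4, EIF2AK1, PPP1R15B and TRIB3 also change sign with 1 array left out, since their siRNAs went opposite ways. The count of members past 1.5-fold with siTARBP2-2, 1 (ATF5), was 0 without background correction and 0 with the authors' values. The members' median (-0.081) was 0.02 with equal array medians, -0.038 with the mean of probes and -0.018 over single probes, and it ran from -0.058 to -0.024 with 1 knockdown array left out. The ATF4 target median (-0.09) was -0.079 without background correction, 0.022 with equal array medians and -0.076 with the authors' values, and ran from -0.099 to -0.088 with 1 knockdown array left out. Genes past 1.5-fold with siTARBP2-1 (308) numbered 62 without background correction, 82 with offset 50, 71 with the authors' values, 1278 with equal array medians, 177 with detection on all arrays and 483 over single probes. With siTARBP2-2 (1194) they numbered 475, 640 and 528 in the first 3 of these and 1159 with equal array medians, where the order of the siRNAs turned. With 1 array per siRNA and 1 control, no test of either siRNA alone and none within the control was possible. No paired analysis was possible because no label pairs a knockdown array with the control array.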
